A study of Mus musculus with 9 samples.

Results

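Ephx1, Ephx2 and Ephx4 are 3 of the mouse epoxide hydrolase genes, and Aldh1a1, Aldh1l1 and Aldh2 are 3 of the aldehyde dehydrogenase genes. Their RNA was followed in hippocampal tissue after knock-down of Camta1, the gene of a transcription activator that binds calmodulin. The 6 genes were chosen by name from a table of 31804 genes, and all 6 were among the 16438 that passed a filter on low counts. The list was selected on earlier results of the same libraries, with the differences between the knock-down and control groups known, so those differences are given here as a description, and which of the 6 passed edgeR's threshold against control is counted without being read as evidence.

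The tissue came from 9 male C57BL/6NCrl mice, with 3 animals in each of 3 groups. Each animal was 8 weeks old when a recombinant adeno-associated virus (rAAV) was injected into its dorsal hippocampus, and tissue was taken 3 weeks later. The control group received a hairpin RNA without a target (control shRNA), and the others received Camta1 shRNA A or Camta1 shRNA B, hairpins of different sequence against the same gene. All 3 groups therefore carried a virus, a hairpin and its mCherry marker, and no animal without virus was analysed here. The fluorescent area was cut out under a microscope, so a library holds RNA of every cell type in that area, infected or not. The promoter that drove the hairpins and the serotype of the virus are not given in the sources used here. RNA was selected by its polyA tail and sequenced without keeping the strand, giving 29123744 to 38189288 counts per library.

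Epoxide hydrolases add water to the strained ring of an epoxide and turn it into a diol. Ephx1 encodes the microsomal enzyme of the endoplasmic reticulum, known for clearing epoxides of drugs and pollutants. Ephx2 encodes the soluble enzyme that hydrolyses the epoxides of arachidonic acid, lipid mediators that act on vessel tone and inflammation, and Ephx4 encodes a relative whose substrates are poorly known. Aldehyde dehydrogenases oxidise aldehydes to acids: Aldh1a1 makes retinoic acid from retinaldehyde, Aldh1l1 oxidises formyltetrahydrofolate in folate metabolism and is widely used to mark astrocytes, and Aldh2 clears acetaldehyde and products of lipid peroxidation in mitochondria.

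RefSeq start windows, each with 250 bases before the annotated start and 50 from it on, were found for 4 of the 6 genes, on build GRCm38.p6. Ephx1 and Aldh1a1 are shown because their RNA was higher with both hairpins, Aldh1l1 because it was higher with shRNA B, and Ephx4 because it is the one gene of the 4 with no such increase. Sequences run 5′ to 3′ along the strand of the gene. Capitals mark every match, on either strand, to CGCG, the core bound by plant relatives of Camta1, or to the GC box GGGCGG, which binds Sp1.
Ephx1 (chr1:181017520-181017819, minus strand): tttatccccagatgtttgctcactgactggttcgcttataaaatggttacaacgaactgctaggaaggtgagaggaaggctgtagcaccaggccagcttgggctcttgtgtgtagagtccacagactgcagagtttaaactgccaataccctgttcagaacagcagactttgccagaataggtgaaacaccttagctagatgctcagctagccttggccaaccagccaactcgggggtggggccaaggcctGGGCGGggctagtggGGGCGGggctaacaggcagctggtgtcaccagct
Aldh1a1 (chr19:20601718-20602017, plus strand): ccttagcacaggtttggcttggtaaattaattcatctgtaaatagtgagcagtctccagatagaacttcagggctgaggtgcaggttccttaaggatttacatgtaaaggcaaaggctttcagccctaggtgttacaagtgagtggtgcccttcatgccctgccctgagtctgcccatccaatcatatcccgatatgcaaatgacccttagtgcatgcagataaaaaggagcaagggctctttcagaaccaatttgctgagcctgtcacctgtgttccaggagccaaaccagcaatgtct
Aldh1l1 (chr6:90550543-90550842, plus strand): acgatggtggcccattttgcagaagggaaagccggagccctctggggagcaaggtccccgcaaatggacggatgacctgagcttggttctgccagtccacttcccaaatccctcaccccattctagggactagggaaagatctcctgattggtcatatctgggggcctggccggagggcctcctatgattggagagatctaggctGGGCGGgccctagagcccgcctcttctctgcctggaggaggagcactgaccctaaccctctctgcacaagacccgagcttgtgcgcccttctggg
Ephx4 (chr5:107403263-107403562, plus strand): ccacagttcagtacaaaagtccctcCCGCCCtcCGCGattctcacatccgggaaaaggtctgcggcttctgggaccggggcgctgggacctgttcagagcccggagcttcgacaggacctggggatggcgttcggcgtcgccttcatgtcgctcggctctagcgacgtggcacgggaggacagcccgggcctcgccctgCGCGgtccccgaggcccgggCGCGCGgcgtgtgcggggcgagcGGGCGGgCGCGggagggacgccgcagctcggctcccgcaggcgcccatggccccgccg

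The windows differed in base composition. The Ephx4 window had a GC content of 73.3% and 41 CG dinucleotides, against a median of 52.7% and 7 over all 32851 RefSeq windows of this length. The Ephx1 window had 54.3% and 5 CG dinucleotides, the Aldh1l1 window 60.0% and 9, and the Aldh1a1 window 47.0% and 1. CGCG was found in the Ephx4 window alone among these, at 5 places of which some overlap, the first at base -217 counted from the start (the start is base 1). It occurs in 38.0% of all windows. The GC box was found at bases 2 and 17 of Ephx1, at base -45 of Aldh1l1 and at bases -225 and -8 of Ephx4, and it occurs in 35.7% of all windows. The core of the antioxidant response element, TGACNNNGC, occurs in 12.4% of all windows and the p53 consensus decamer in 8.36%, and neither was found on either strand in these 4. Aldh1a1 and Ephx4 each have a further RefSeq window (starting at chr19:20492333 and chr5:107405511), in which none of the 4 motifs was found. A match is a run of letters and not a measured binding site.

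Camta1 RNA was lower in all libraries of both hairpin groups than in any control library. The control libraries held 426, 455 and 441 CPM, which are counts put on one library size by TMM scaling (trimmed mean of M values). The shRNA A libraries held 230, 174 and 254 CPM and the shRNA B libraries 238, 145 and 266 CPM. The group means were 49.8% and 49.1% of the control mean. The hairpin libraries were spread widely around these means, with an SD of 41.3 and 63.2 CPM (n = 3 each), and the edgeR adjusted p for Camta1 was 0.388 with shRNA A and 0.0776 with shRNA B. By DESeq2 Camta1 passed with both (adjusted p = 0.0152 and 0.00174), and it passed by edgeR with both when shRNA B replicate 2, lowest in Camta1, was left out (adjusted p = 0.015 and 0.0367, at -1.01 ± 0.12 and -0.81 ± 0.136).

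Ephx1 had the clearest difference of the 6 genes. Its level was 25.2, 31.4 and 32.0 CPM in the control libraries, 51.8, 53.1 and 51.3 CPM with shRNA A, and 54.1, 65.5 and 53.8 CPM with shRNA B. The lowest hairpin library thus lay well above the highest control library, and the shRNA A libraries were closer together than those of the other groups. The mean was 29.5 ± 3.78 CPM in control, 52.1 ± 0.887 CPM with shRNA A and 57.8 ± 6.69 CPM with shRNA B (SD, n = 3 each). On the log2 scale the difference from control was 0.82 ± 0.099 (SE) with shRNA A and 0.97 ± 0.099 with shRNA B, 1.76-fold and 1.96-fold. By unadjusted p it ranked 1 of 16438 genes in both comparisons, which is part of what selected it. In tissue of mixed cell types, more cells that hold an RNA and more RNA per cell cannot be told apart.

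Ephx2, the soluble enzyme, showed groups that overlapped. It was at 14.8, 15.9 and 14.1 CPM in control, 19.1, 14.9 and 17.9 CPM with shRNA A, and 16.6, 13.3 and 16.9 CPM with shRNA B. The lowest of all 9 libraries was shRNA B replicate 2, and the highest was shRNA A replicate 1. The log2 differences from control were 0.21 ± 0.113 with shRNA A and 0.07 ± 0.113 with shRNA B (SE), with 95% intervals of -0.03 to 0.46 and -0.18 to 0.31.

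Ephx4 held nearly the same level in every control and shRNA A library. The values were 33.7, 33.4 and 34.3 CPM in control, 34.6, 34.4 and 34.4 CPM with shRNA A, and 30.0, 29.3 and 33.1 CPM with shRNA B. The shRNA A libraries lay just above the control libraries and the shRNA B libraries just below them, without overlap in either case. The differences were small, at 0.03 ± 0.064 with shRNA A and -0.13 ± 0.065 with shRNA B (log2, SE), and the 95% intervals of both included 0. It is the one gene of the 6 whose mean was below control in a hairpin group.

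Aldh1a1, the retinaldehyde dehydrogenase, was higher with both hairpins by almost the same amount. Its level was 66.2, 66.2 and 68.5 CPM in control, 96.8, 85.0 and 86.2 CPM with shRNA A, and 95.0, 92.3 and 82.2 CPM with shRNA B. All 6 hairpin libraries lay above all 3 control libraries, which were close together. The log2 difference from control was 0.42 ± 0.073 with shRNA A and 0.42 ± 0.073 with shRNA B (SE), 1.33-fold and 1.34-fold. Aldh1a7, a close paralog of Aldh1a1, was measured at a mean of 0.159 CPM per kilobase in control, and reads shared between the pair could have been split or lost in the counting.

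Aldh1l1 differed from control with shRNA B and hardly with shRNA A. It was at 63.0, 66.0 and 58.0 CPM in control, 65.1, 62.7 and 70.0 CPM with shRNA A, and 81.7, 90.3 and 87.3 CPM with shRNA B. The control and shRNA A libraries overlapped, whereas all 3 shRNA B libraries lay above the other 6. The log2 difference from control was 0.08 ± 0.071 with shRNA A and 0.47 ± 0.07 with shRNA B (SE), the latter 1.39-fold. In the GENCODE M21 annotation Aldh1l1 shares 499 bases of exon with the antisense gene Gm15756, and without strand the reads of that stretch cannot be told apart. It shares a further 105 bases with Gm45901 on the same strand, where knowing the strand would not separate the reads. Neither Gm15756 nor Gm45901 is among the genes counted, so their reads could be included in the level of Aldh1l1.

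Aldh2 had the highest CPM of the 6, a value that takes no account of gene length. It was somewhat higher with shRNA B, without passing the threshold. The control libraries held 93.7, 102 and 109 CPM, the shRNA A libraries 111, 108 and 119 CPM, and the shRNA B libraries 114, 125 and 131 CPM. Control and shRNA A overlapped, since control replicate 3 lay above shRNA A replicate 2, while the shRNA B libraries all lay above control. The log2 difference was 0.15 ± 0.077 with shRNA A and 0.28 ± 0.077 with shRNA B (SE), with 95% intervals of -0.018 to 0.315 and 0.114 to 0.447. Aldh2 shares 130 bases of exon with Gm42879 on the opposite strand, and without strand the reads of that stretch cannot be told apart. Gm42879 is not among the genes counted, so its reads could be included in the level of Aldh2.

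**Figure D1:**
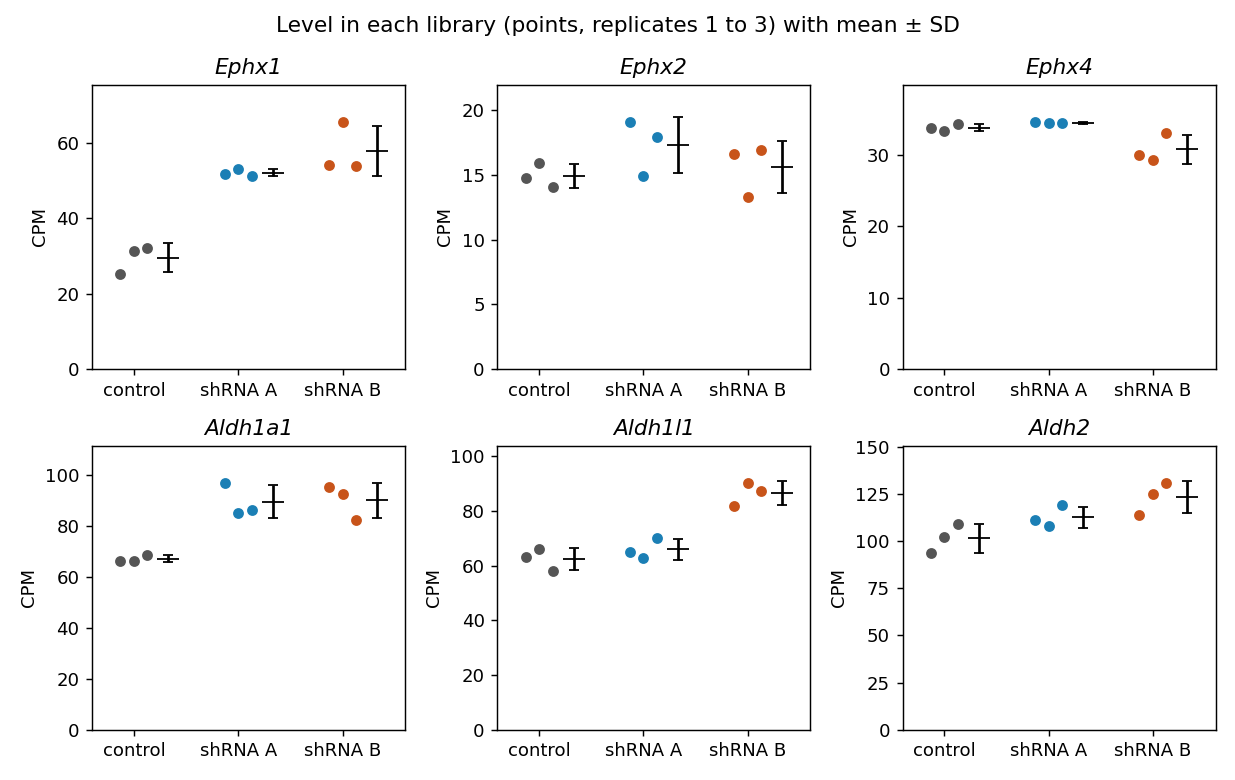
Level in CPM (y axis, from 0) of each of the 6 genes in the 9 libraries, one panel per gene. Points are libraries in the order of replicates 1 to 3, coloured by group, and the bars beside them are the mean ± SD of 3 libraries. Ephx1 and Aldh1a1 lie above control in all 6 hairpin libraries and Aldh1l1 in the 3 shRNA B libraries, while Ephx2 overlaps between groups.

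Counted over the 6 genes, 1 (Ephx1) passed edgeR's adjusted threshold of 0.05 as higher with shRNA A, where 0.0243% of all genes tested did. With shRNA B 3 passed as higher (Ephx1, Aldh1a1 and Aldh1l1), where 0.779% of all genes did, and for the mean of both hairpins 2 did (Ephx1 and Aldh1a1), where 0.073% of all genes did. None of the 6 passed as lower, where 0%, 0.237% and 0.0243% of all genes did in the same order. Groups did not overlap for 3 of the 6 with shRNA A (12.5% of all genes), for 5 with shRNA B (18.1%) and for 2 when all hairpin libraries were set against control (4.5%). These counts take either direction. Ephx4 is among the 3 and the 5, at a log2 difference of 0.03 with shRNA A and -0.13 with shRNA B. The median log2 difference of the 6 was 0.18 with shRNA A and 0.35 with shRNA B, where that of all genes was 0.00 in both. Since the genes were chosen with these contrasts known, the counts describe the list and no more. These comparisons share the control libraries.

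Single libraries decided some of the calls. The Ephx1 call with shRNA A was lost without any of the 3 shRNA A libraries or without control replicate 1 or 2, with a log2 difference of 0.72 to 0.86 in those fits, whereas it passed with shRNA B in all 17 alternatives. The Aldh1a1 call with shRNA B was lost without shRNA B replicate 2 or any control library (0.40 to 0.44), and that of Aldh1l1 without control replicate 1 or 3 (0.48 and 0.42). The Aldh1a1 call for the mean of both hairpins was lost without any shRNA A library or any control library (0.39 to 0.44). Control replicate 3 also stood apart in markers of choroid plexus, the tissue that makes cerebrospinal fluid, with a summed level of 1061 CPM against 23.8 to 45.4 CPM in the other 8. Without it 1 of the 6 genes passed with each of shRNA A, shRNA B and their mean, Ephx1 in each case, at log2 differences of 0.88, 1.03 and 0.95. Over all genes that fit called 8, 19 and 18, against 4, 167 and 16 with all libraries, so that with shRNA B calls were lost across the table as well. Leaving out control replicate 1 or 2 instead left 13 and 23 genes called with shRNA B, so this loss was not particular to control replicate 3. Genes named below from other lists as passing were not followed through these fits, so their calls may also rest on single libraries.

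**Figure D2:**
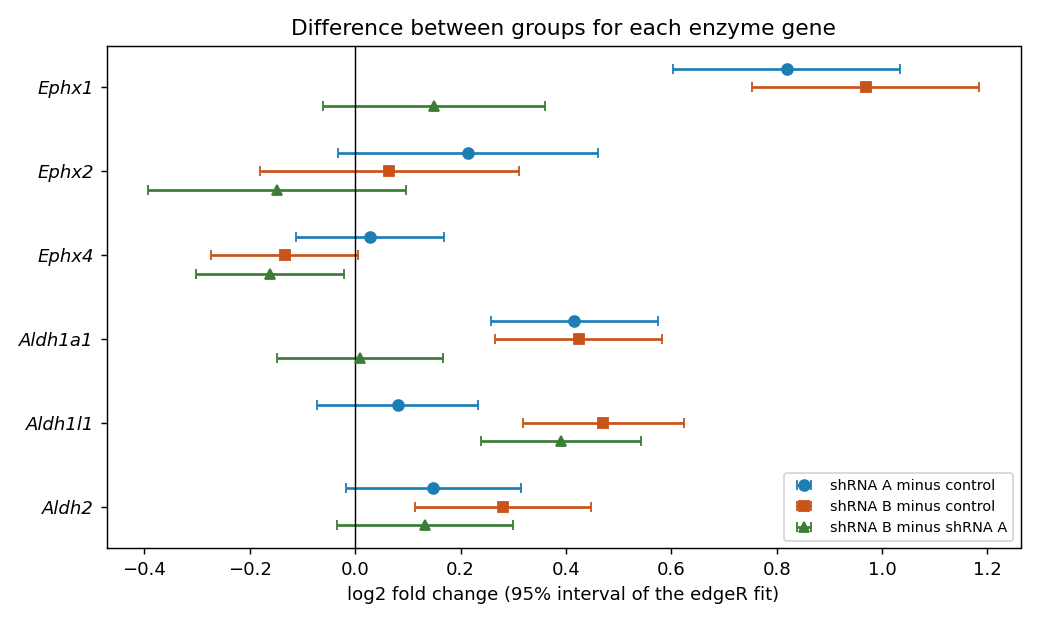
Log2 fold change of each gene (x axis) with its 95% interval from the edgeR fit over 9 libraries: shRNA A minus control (circles), shRNA B minus control (squares) and shRNA B minus shRNA A (triangles). Both intervals of Ephx1 against control lie above 0.6 and those of Aldh1a1 above 0.25, and for Aldh1l1 the circle and the square lie apart.

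The hairpins were also set against each other. This contrast is the difference of the 2 differences from control that were known when the genes were chosen, so it too is a description of the 6 genes and no p is given for them. By edgeR's adjusted threshold 0 of the 6 genes and 0% of all genes tested passed. Over all genes, 1536 had an unadjusted edgeR p under 0.05, limma-voom called 0 and DESeq2 called 123. Aldh1l1 had the largest difference of the 6, higher with shRNA B by 0.39 ± 0.07 (log2, SE; 95% interval 0.24 to 0.54), with groups that did not overlap. Aldh1l1 passed the threshold in 2 of 17 alternatives, DESeq2 and no low-count filter, which describes a gene chosen with its differences known and is not read as evidence. Ephx4 was lower with shRNA B by -0.16 ± 0.064 (95% interval -0.30 to -0.02). For Aldh1a1 the difference between hairpins was 0.01 ± 0.073, with an interval of -0.15 to 0.17. For Ephx1 it was 0.15 ± 0.097, with an interval of -0.06 to 0.36, although every shRNA B library lay above every shRNA A library. For Aldh2 and Ephx2 it was 0.13 ± 0.076 and -0.15 ± 0.112. Groups did not overlap between the hairpins for 3 of the 6 (Ephx1, Ephx4 and Aldh1l1), against 14.2% of all genes.

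Within the hairpin libraries the genes did not follow the residual Camta1 level in a common way. The library with the least Camta1, shRNA B replicate 2 at 145 CPM, had the highest Ephx1 (65.5 CPM) and Aldh1l1 (90.3 CPM) and the lowest Ephx2 (13.3 CPM) and Ephx4 (29.3 CPM) of all. The library with the next lowest, shRNA A replicate 2 at 174 CPM, had 53.1 CPM of Ephx1 and the lowest Aldh1l1 of the hairpin libraries, at 62.7 CPM. In the other 4 libraries, with 230 to 266 CPM of Camta1, Ephx1 lay between 51.3 and 54.1 CPM. No correlation is given over libraries that differ in hairpin.

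Levels of different genes can be set side by side only per length. Divided by exon length, the control levels ran from Ephx4 at 20.5 ± 0.257 CPM per kilobase and Aldh2 at 19.8 ± 1.49, over Ephx1 at 15.1 ± 1.94, Aldh1l1 at 13.8 ± 0.893 and Aldh1a1 at 13.6 ± 0.266, to Ephx2 at 6.01 ± 0.361 (SD, n = 3). Ephx4 and Aldh2 did not differ beyond their spread, nor did Ephx1, Aldh1l1 and Aldh1a1, while the gaps between these sets and down to Ephx2 were larger than the SDs. By this length Ephx1 stood above the other 5 with the hairpins, at 26.7 ± 0.455 CPM per kilobase with shRNA A and 29.6 ± 3.43 with shRNA B. The order depends on the length: with the longest single transcript Aldh1a1 came first in control, at 28.4 CPM per kilobase, before Ephx4 at 26.4 and Aldh2 at 26.2.

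Ephx1 went from 36.1 ± 2.94% of the summed level per kilobase of 4 epoxide hydrolase genes (Ephx1 to Ephx4) in control to 48.8 ± 1.21% with shRNA A and 54.0 ± 4.39% with shRNA B. Ephx4 went from 49.2% to 38.3% and 34.2%, and Ephx2 from 14.4% to 12.7% and 11.5%. Ephx3 made up 0.294% of the control sum. A share falls when another member rises, so these shares are not separate measurements. Among 20 aldehyde dehydrogenase genes the shares moved less: Aldh1a1 went from 10.9 ± 0.266% to 13.7 ± 1.19% and 13.1 ± 1.09%, Aldh1l1 from 11.1 ± 0.663% to 11.0 ± 0.242% and 13.7 ± 0.628%, and Aldh2 from 15.9 ± 1.25% to 16.6 ± 0.273% and 17.3 ± 1.07%. Aldh7a1, which acts in lysine breakdown, was the other abundant gene of the family, with 14.4% in control.

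**Figure D3:**
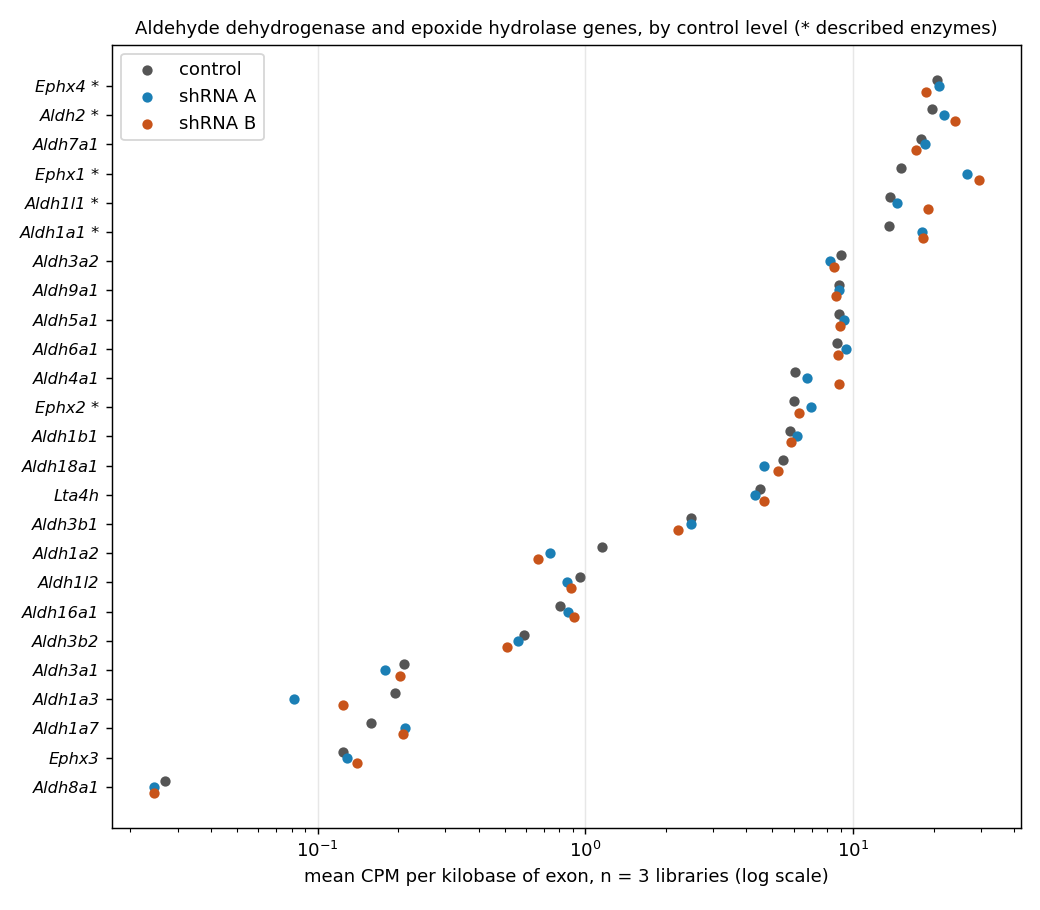
Mean level per kilobase of exon (x axis, log scale, n = 3 libraries) of 25 epoxide hydrolase and aldehyde dehydrogenase genes in the 3 groups, ordered by control level, with an asterisk at the 6 genes described. In control Ephx4 stands at 20.5 and Aldh8a1 at 0.027 CPM per kilobase, and the points of Ephx1 separate most clearly among the abundant genes.

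In the rest of both families 1 gene passed the threshold. Of the 16 other aldehyde dehydrogenase genes tested, none passed with shRNA A and 1 passed as higher with shRNA B, Aldh4a1, which acts in proline breakdown. It went from 29.9 ± 1.99 CPM in control to 33.1 ± 0.595 with shRNA A and 43.5 ± 5.85 with shRNA B, a log2 difference of 0.54 ± 0.09 (SE; edgeR adjusted p = 0.0223). The medians of the 16 were 0.01 and -0.06. Aldh1a2, the main retinoic acid enzyme of meninges, differed by -0.63 ± 0.2 and -0.78 ± 0.201 without passing, at 2.59 CPM in control. Neither of the other enzymes that open epoxides, Ephx3 and the leukotriene hydrolase Lta4h, passed with either hairpin.

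Few of the genes that make or use the substrates of these enzymes passed the threshold. Of 21 cytochrome P450 and eicosanoid genes tested, none passed against control in any of the 3 contrasts, and Cyp1b1 had the largest difference of those above 1 CPM (-0.69 ± 0.167 for the mean of both hairpins; edgeR adjusted p = 0.145). Of 26 targets of Nrf2 and other detoxification genes none passed. The Nrf2 target Nqo1, a quinone reductase, was at 3.25 CPM in control, 3.43 with shRNA A and 3.47 with shRNA B, and Hmox1, which breaks down haem, had the largest difference of this list (0.43 ± 0.112 for the mean; edgeR adjusted p = 0.187). Of 21 retinoic acid genes tested, Dhrs3, which turns retinaldehyde back into retinol, fell with shRNA B by 0.53 ± 0.111 on the log2 scale (edgeR adjusted p = 0.0454), from 15.3 to 10.6 CPM, and no other passed. Of 18 folate genes tested, Mthfd2, a mitochondrial folate enzyme, rose with shRNA B by 0.55 ± 0.104 (edgeR adjusted p = 0.0341), from 5.86 to 8.54 CPM. In the same list Folr1, also a choroid plexus marker, and in the retinoic acid list Rxrg had the largest differences (-3.61 ± 1.327 and -1.49 ± 0.47 for the mean), with control SDs of 5.85 and 2.05 CPM around means of 3.73 and 2.32 CPM. Of 10 genes tested from a list of dopamine and aldehyde sources none passed, and Drd2 had the largest difference (-0.20 ± 0.141).

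Targets of p53, a stress-activated transcription factor, were listed because Ephx1 has been reported among the genes it induces in mouse cells. Of the 20 tested, 1 passed as higher with shRNA A, 7 with shRNA B and 4 for the mean of both hairpins. Of all genes 0.0243%, 0.779% and 0.073% did. None passed as lower, where 0%, 0.237% and 0.0243% of all genes did. The medians were 0.27, 0.34 and 0.28, with 14, 16 and 16 of the 20 above 0. Cdkn1a, an inhibitor of the cell cycle, was at 10.2 ± 1.74 CPM in control, 28.3 ± 1.8 with shRNA A and 39.1 ± 10.9 with shRNA B (edgeR adjusted p = 0.0755 and 0.00623). Eda2r, a death receptor for ectodysplasin, was at 0.202 ± 0.162, 1.63 ± 0.301 and 2.06 ± 0.596 CPM and passed with both (edgeR adjusted p = 0.039 and 0.00623). Phlda3, an inhibitor of Akt signalling, and Ccng1, a cyclin, passed with shRNA B, at 1.09 ± 0.141 and 0.74 ± 0.104. Mdm2, the p53 ubiquitin ligase, was at 56.9, 56.6 and 58.5 CPM. The list was drawn up with these results known, so its count is no independent evidence. A part of p53 in the level of Ephx1 was not tested.

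Over all 9 libraries, the genes whose log2 CPM was most like that of Ephx1, among 14517 genes that averaged at least 1 CPM, were Phlda3 (Pearson r = 0.98), Eda2r (0.978) and Emr1 (0.969), a macrophage and microglia gene. Around the group means r was 0.816, 0.765 and 0.787. Eda2r was at 0.202 CPM in control and reached the cut-off of 1 CPM only through the hairpin groups (1.63 and 2.06 CPM). Its r with Ephx1 over all libraries is therefore not read as evidence. Those most like Aldh1l1 were Dock2 (0.972), Cenpt (0.961) and Dhrs1 (0.958), and those most like Aldh1a1 were Tpp1 (0.944), Cog5 (0.933) and Rpl36al (0.931). For Aldh2 they were Arl4d (0.967), Arpc1b (0.96) and Scube2 (0.954), for Ephx4 Trappc6b (0.966), Arfgef2 (0.965) and Dcun1d4 (0.949), and for Ephx2 Mgst3 (0.927), Atp5e (0.923) and a gene listed as ENSMUSG00000083325 (0.921). Ephx1 and Aldh1a1 had r = 0.917 over the libraries and 0.217 around the group means, so that their likeness lay between groups more than within them. All these r come from 9 libraries that share the group differences and are the highest of many, so they are a description.

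The 12 markers of neurons summed to 14090 to 16129 CPM over the libraries with none at 0. Camk2a was the largest part, at 8115 CPM in control, 8378 with shRNA A and 8362 with shRNA B. The sum goes with neural tissue but cannot check which region was cut out. The 15 astrocyte markers summed to 5831 to 6393 CPM in control, 5959 to 6737 with shRNA A and 5065 to 6255 with shRNA B, and none passed as changed, with medians of 0.05 and -0.03. Aldh1l1 was chosen with its increase known, so its distance from these markers is a description. Per 1000 CPM of those markers it was at 9.85 to 10.8 CPM in control, 10.4 to 10.6 with shRNA A and 13.5 to 17.8 with shRNA B. With shRNA B 4 of the 15 markers lay above 0, the highest being Fgfr3 at 0.23 ± 0.118. The library with the lowest astrocyte sum, shRNA B replicate 2, had the highest Aldh1l1. The gap junction gene Gja1 was at 338 ± 17.6 CPM in control and 243 ± 43.3 with shRNA B (edgeR adjusted p = 0.0614).

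Of 10 reactive astrocyte markers tested, 1 passed with shRNA B and none with shRNA A, with medians of 0.24 and 0.08. All 12 markers summed to 603 to 726 CPM in control, 664 to 738 with shRNA A and 869 to 1250 with shRNA B, highest in shRNA B replicate 2, and most of this sum is Gfap. The marker that passed was Vim, an intermediate filament gene, which rose with shRNA B from 43.9 ± 0.757 to 96.2 ± 21.6 CPM (1.13 ± 0.125; edgeR adjusted p = 0.00623), and Gfap was at 503 ± 60.0 and 785 ± 156 CPM without passing. The largest difference was that of the chemokine gene Cxcl10, at 0.127 CPM in control, 1.46 with shRNA A and 8.26 with shRNA B, which did not pass. Of the 10 tested, 9 lay above 0 with shRNA B. The smallest differences were those of Serpina3n, Timp1, Cp and S1pr3, at 0.08 ± 0.105, 0.03 ± 0.33, -0.12 ± 0.135 and 0.20 ± 0.134 with shRNA B. Osmr, Cd44 and Hspb1 were at 0.24 ± 0.158, 0.25 ± 0.236 and 0.67 ± 0.269 without passing. Microglia markers summed to 579 to 619 CPM in control, 619 to 706 with shRNA A and 711 to 796 with shRNA B, and 4 of 12 rose with shRNA B, C1qa, C1qb, C1qc and Ctss, with medians of the list of 0.19 with shRNA A and 0.41 with shRNA B. For the mean of both hairpins 1 of these, C1qc, rose. The part of these cells in the levels of Aldh1l1, Ephx1 and Aldh1a1 was not tested.

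Oligodendrocyte markers, genes of the cells that make myelin, had medians of 0.42 with shRNA A and 0.30 with shRNA B, with 10 and 9 of 10 above 0. They summed to 3036 to 4963 CPM in control, 4275 to 6692 with shRNA A and 3437 to 7004 with shRNA B, with overlap and no gene passing (largest for Mbp, at 0.49 ± 0.293 for the mean of both hairpins). Their part in the levels of the 6 genes was not tested either. Endothelial and mural markers summed to 596 to 679, 624 to 677 and 617 to 688 CPM, with none of 16 passing and the largest difference for Ly6c1 (0.27 ± 0.095 for the mean). Per 1000 CPM of these markers Ephx1 was at 37.1 to 53.6 CPM in control, 75.8 to 85.0 with shRNA A and 78.1 to 106 with shRNA B. Meningeal markers summed to 87.1 to 148, 72.9 to 88.6 and 75.7 to 83.3 CPM, with Slc6a13, a transporter, lower with shRNA B (-0.98 ± 0.193; edgeR adjusted p = 0.0376) and medians of -0.46 and -0.52. Dcn, a matrix gene, had their largest difference (-1.51 ± 0.624 for the mean) without passing. None of the 4 choroid plexus genes tested passed. The largest difference there was that of Ttr, which encodes transthyretin, at 314 ± 538 CPM in control and 7.28 ± 7.85 and 4.07 ± 3.0 CPM with the hairpins, set by control replicate 3. None of the 12 neuron markers passed. The neuron marker with the largest difference was Wfs1 (0.50 ± 0.285 for the mean).

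**Figure D4:**
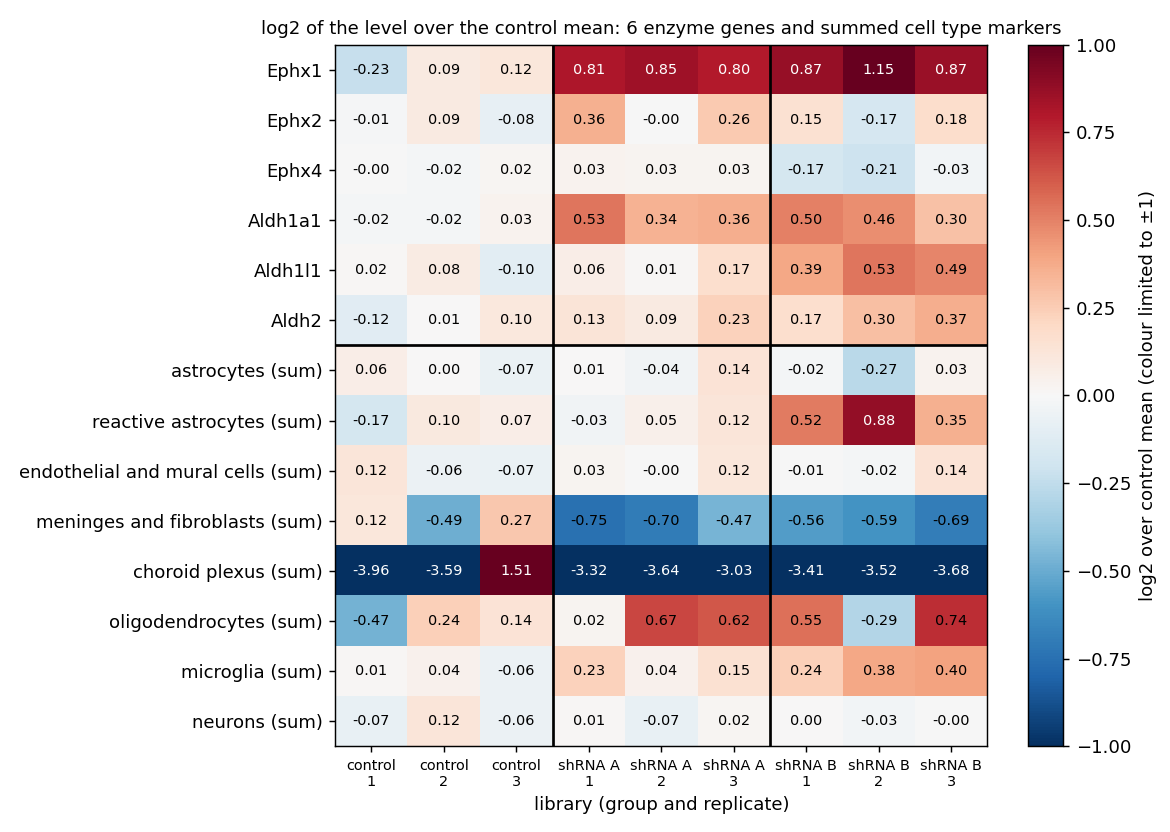
Heat map of log2 of the level over the control mean for the 6 genes (upper rows) and for 8 summed marker lists (lower rows) in the 9 libraries (columns), with each value printed and colours limited to ±1. Ephx1 is raised in all 6 hairpin libraries, Aldh1l1 and the sums of reactive astrocyte and microglia markers are highest in the shRNA B columns, and the choroid plexus row is set by control replicate 3.

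In the authors' deposited table the log2 fold changes of the 6 genes with shRNA A and shRNA B were 0.82 and 0.97 for Ephx1, 0.21 and 0.06 for Ephx2, and 0.03 and -0.14 for Ephx4. The same authors' deposited table gives 0.42 and 0.42 for Aldh1a1, 0.08 and 0.47 for Aldh1l1, and 0.15 and 0.28 for Aldh2. These are estimates from the same counts and not a second measurement.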

How the data were processed

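The authors deposited a table of raw read counts per Ensembl gene in 9 libraries, per the file headers. Build mm9 is named in the submitters' processing notes, with TopHat 1.4.1 and HTSeq 0.6.1 among the tools, and the sources used here do not give the annotation. The authors' deposited table also holds a mean normalized signal, log2 fold changes, their standard errors and a test score, and p-values of a likelihood ratio test, per the file headers, of which the log2 fold changes are printed.

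Genes were tested with edgeR 4.0.16 in R 4.3.3: filterByExpr by group, TMM scaling, the robust quasi-likelihood test with all 9 libraries in the fit, and Benjamini-Hochberg adjustment over 16438 genes with a threshold of 0.05, two-sided. The script was tested on simulated data. The SE is the log2 fold change over the square root of F, and intervals use the gene's degrees of freedom. P-values set a difference against the spread between animals within groups of 3, estimated over all 9 libraries and moderated across genes. In the libraries 1 read stood for 0.0262 to 0.0343 CPM. Levels per kilobase use exon lengths of GENCODE M21 (GRCm38), and RefSeq coordinates are GRCm38.p6, not the build of the counts. Every sample column matched a label, with 0 left over. No 2 libraries of a group agreed within sampling noise.

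The 6 genes, 16 lists of genes (242 of 243 genes matched) and the tests were chosen with earlier results of these data known. From each list the text names genes past the threshold against control, up to 4 by smallest p, and the gene with the largest difference for the mean of both hairpins above 1 CPM. For likeness it names the 3 genes with the highest r. Ephx3, Aldh7a1, Nqo1, Mdm2, Gfap, Serpina3n, Timp1, Cp, S1pr3, Osmr, Cd44, Hspb1 and Fgfr3 were named after their values were seen. Alternatives were DESeq2 1.42.0 size factors and test, limma 3.58.1 (voom), library size alone, no filter, fits of the compared groups, no robust estimation, a replicate block, each library left out in turn, and the longest transcript as length.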

Additional observations from a re-analysis of the deposited data

How the results depend on the processing

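Of 402 refits of the 6 genes, 375 kept direction and side of the threshold, 17 lost a call, 6 gained a call and 4 changed sign. Most of these refits had no call to lose. Ephx1 kept its call in 12 of 17 refits with shRNA A, 17 of 17 with shRNA B and 16 of 16 for the mean. Aldh1a1 kept it in 13 of 17 with shRNA B and 10 of 16 for the mean, and Aldh1l1 in 15 of 17 with shRNA B. The number of the 6 genes called with shRNA A, 1 in the report, was 2 by DESeq2 and without a low-count filter, each adding Aldh1a1, and 0 to 1 with 1 library left out. With shRNA B it was 1 to 3 and for the mean of both hairpins 1 to 2 when a library was left out. Between the hairpins it was 1 by DESeq2 and without the filter (Aldh1l1), and 0 without any 1 library. Aldh2 with shRNA B passed by DESeq2 alone (adjusted p = 0.0442). Over all genes, 4 were called with shRNA A, but 43 by DESeq2, 1 by limma-voom, 9 without the filter, 18 in a fit of the compared groups, 2 without robust estimation, and 0 to 10 with 1 library left out. With shRNA B 167 were called, but 386 by DESeq2, 78 by limma-voom, 42 in a fit of the compared groups and 13 to 217 with 1 library left out. For the mean 16 were called, but 243 by DESeq2, 67 without the filter and 1 to 52 with 1 library left out. Between the hairpins 0 were called, but 123 by DESeq2, 21 without the filter and 0 to 110 with 1 library left out. The cause of these shifts was not tested. The titles' replicate numbers were not taken to pair the animals. Correlations of deviations from the group means ran from -0.128 to 0.273 for libraries of the same number and from -0.202 to 0.123 for the others. Between the hairpin groups they were 0.108, 0.0891 and 0.273 for the same number and -0.202 to 0.1 for the others. Whether the numbers pair animals was not tested. A replicate block moved the calls over all genes to 31 for the mean and 1 between the hairpins, with the 6 genes' calls at 1, 3, 2 and 0. Camta1 with shRNA B also passed by edgeR under the block (adjusted p = 0.0347) and without robust estimation (0.031), and with shRNA A in a fit of the compared groups (0.0128). The difference between hairpins changed sign for Aldh1a1 without shRNA A replicate 2 (-0.027) or 3 (-0.017) or shRNA B replicate 1 (-0.034) or 2 (-0.011), with a range of -0.034 to 0.07 over the libraries left out, and for Camta1 without shRNA A replicate 1 (0.019) or 3 (0.10) or shRNA B replicate 2 (0.201), with a range of -0.192 to 0.201. With the longest transcript as length the control levels were 7.33 (Ephx2), 26.4 (Ephx4), 28.4 (Aldh1a1), 14.9 (Aldh1l1) and 26.2 (Aldh2) CPM per kilobase. The 6 genes had 424 to 4408 counts per library, and the common biological coefficient of variation over all genes was 9.45%.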
